A study of Mus musculus with 34 samples.

Results

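Wild-type mouse bone marrow-derived macrophages were given IL-10 together with LPS for 180 min, or LPS alone for the same time, and 2 arrays were hybridised for each condition, so that 4 of the 34 arrays in the series form this comparison. The arrays were chosen by their titles. Macrophages were grown from bone marrow for 7 days in CSF-1, the growth factor that drives macrophage differentiation. LPS, the bacterial lipopolysaccharide sensed through the receptor TLR4, was used at 100 ng/ml and IL-10 at 10 ng/ml. The other groups used here are IL-10-/- macrophages with LPS and IL-10 at 180 min (2 arrays) or LPS alone (2 arrays), IL-6-/- macrophages with LPS and IL-10 at 180 min (2 arrays) or LPS alone (1 array), and wild-type macrophages with LPS and IL-10 at 45 min (2 arrays) or LPS alone (2 arrays). The titles of the knockout arrays name both agents, whereas the treatment notes of those given IL-10 name LPS only, and the titles were followed. All cells came from the same culture scheme. The titles call the arrays biological replicates, but the number of mice behind them and their strain are not given, so the p-values measure only the spread between arrays.

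IL-10 is an anti-inflammatory cytokine that macrophages themselves release some time after they meet LPS. It binds a receptor made of the chains encoded by Il10ra and Il10rb, and the kinase JAK1 then activates the transcription factor STAT3. STAT3 targets are known to restrain the output of inflammatory cytokines in macrophages. LPS also makes macrophages secrete type I interferon, which acts back on the same cells through other STAT proteins and raises a large set of antiviral genes. Wild-type cells under LPS alone can make IL-10 themselves, and the comparison asks what IL-10 supplied from outside adds.

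Signals are MAS5 values, a linear brightness per probe set, and all arrays were scaled to a common trimmed mean near 500. Changes are differences of log2(signal + 50), which understates the fold of dim genes, given with the standard error of a limma fit over all 16 groups. Between 5910 and 6015 probe sets reached a signal of 200 on each of the 4 arrays. Of 27 macrophage markers on the array, 26 reached 200 on each array, and their summed signal was 356404 and 372244 with IL-10, against 331772 and 364145 under LPS alone. The first LPS plus IL-10 array resembled the first LPS-alone array (r = 0.9542 across 8224 probe sets) more closely than the 2 LPS plus IL-10 arrays resembled each other (r = 0.9363) or the 2 LPS-alone arrays did (r = 0.9421). Between the second arrays of the 2 conditions r was 0.9413, and between arrays of unlike number and condition it was 0.9252 and 0.934. The ratio of 3' to 5' Gapdh probes was 0.7035 and 1.088 with IL-10, against 0.663 and 0.7223 under LPS alone, and 1.088 was the highest of all 34 arrays. The part of these array differences in the results was not tested.

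Few transcripts passed the test for a change with added IL-10 in wild-type cells, which can make their own. With so few arrays in each group, a transcript that did not pass may still have changed. At an adjusted p under 0.05, 11 of 8224 probe sets passed (0.134%), 5 of them higher (0.0608%) and 6 lower (0.073%) with IL-10, and each stood for a different gene (0.181% of 6070 genes). At an unadjusted p under 0.05 there were 525 probe sets (6.38%). The genes that rose were Selp, Cxcl9, Nab2, Procr and Il1rn, and those that fell were Cav1, Mx2, Macir, Isoc1, Blnk and Irf1. Fitted on these 4 arrays alone, without the spread of the other groups, only Selp passed. Selp, Cxcl9 and Cav1 also passed whichever of the 4 arrays was left out. Nab2, Il1rn and Irf1 lost their call without the first LPS-alone array or the second LPS plus IL-10 array, Mx2 and Macir also without the second LPS-alone array, and Procr, Isoc1 and Blnk without any 1 of the 4. In all, 3 probe sets passed without the first LPS-alone array, 6 without the second, 3 without the second LPS plus IL-10 array and 17 without the first.

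Selp encodes P-selectin, an adhesion molecule best known from platelets and endothelium that lets leukocytes roll. Its signal was 10140.9 and 11241.4 with IL-10, against 1552.4 and 1744.2 under LPS alone. Both IL-10 arrays lay far above both others, and the change was 2.66 ± 0.32 on the log2 scale (SE; adjusted p = 8.38e-05), about 6.32-fold. Cxcl9 encodes a chemokine that attracts T cells through CXCR3 and is usually induced by interferon gamma. It gave 811.3 and 666 with IL-10, against 111 and 93.8 under LPS alone, a rise of 2.37 ± 0.29 (adjusted p = 8.53e-05). The LPS-alone arrays were below the level of 200 used to call a probe set measurable, so the size of the Cxcl9 change depends on the pseudocount, with 1.63 as its lowest value and 2.73 as its highest over the alternatives tried.

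Il1rn encodes the IL-1 receptor antagonist, a secreted protein that occupies the IL-1 receptor without signalling. Its signal was already among the brightest, at 33098.8 and 34953.2 with IL-10, against 15693.9 and 16995.9 under LPS alone (log2 change 1.06 ± 0.17, adjusted p = 0.00366). Procr encodes the endothelial protein C receptor, which presents protein C for activation. It gave 3535.8 and 3279.1 with IL-10, against 1392.9 and 1452.6 under LPS alone (1.23 ± 0.21, adjusted p = 0.00543). Nab2, a corepressor of the early growth response factors, gave 1204 and 1517.4 with IL-10, against 504.8 and 517.3 under LPS alone (1.32 ± 0.21, adjusted p = 0.00283). For each of these the groups did not overlap. Egr1, a factor that NAB2 binds, gave 54.9 and 203.2 with IL-10, against 207.5 and 430.8 under LPS alone, and did not pass (adjusted p = 0.331).

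Cav1 encodes caveolin-1, the coat protein of caveolae. It had the smallest adjusted p of the comparison: 266.6 and 270.2 with IL-10, against 1544.9 and 1780.4 under LPS alone, a log2 change of -2.42 ± 0.25 (adjusted p = 6.68e-06). A second, dimmer Cav1 probe set changed by -0.67 and did not pass (adjusted p = 0.999). Blnk encodes an adaptor of B cell receptor signalling. It gave 89.1 and 94.1 with IL-10, against 269.1 and 343.8 under LPS alone (-1.32 ± 0.26, adjusted p = 0.0249), and its second probe set changed by -0.78 without passing (adjusted p = 0.643). Macir, named for regulating macrophage immunometabolism, gave 192.3 and 125.5 with IL-10, against 545.8 and 477.3 under LPS alone (-1.44 ± 0.26, adjusted p = 0.00744). Isoc1, which encodes a protein with an isochorismatase domain, gave 80.7 and 95.8 with IL-10, against 278.6 and 350.8 under LPS alone (-1.39 ± 0.24, adjusted p = 0.00584). The IL-10 arrays of Blnk, Macir and Isoc1 all read below 200.

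Mx2 and Irf1 belong to the interferon response. Mx2 encodes an interferon-induced GTPase with antiviral activity and gave 397.3 and 335.2 with IL-10, against 1692.1 and 1735.8 under LPS alone (-2.09 ± 0.36, adjusted p = 0.00543). Irf1 encodes a transcription factor that drives interferon and inflammatory genes and gave 1504.6 and 1332.1 with IL-10, against 3846.4 and 3072.1 under LPS alone (-1.25 ± 0.20, adjusted p = 0.00366). The groups did not overlap for either gene.

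**Figure D1:**
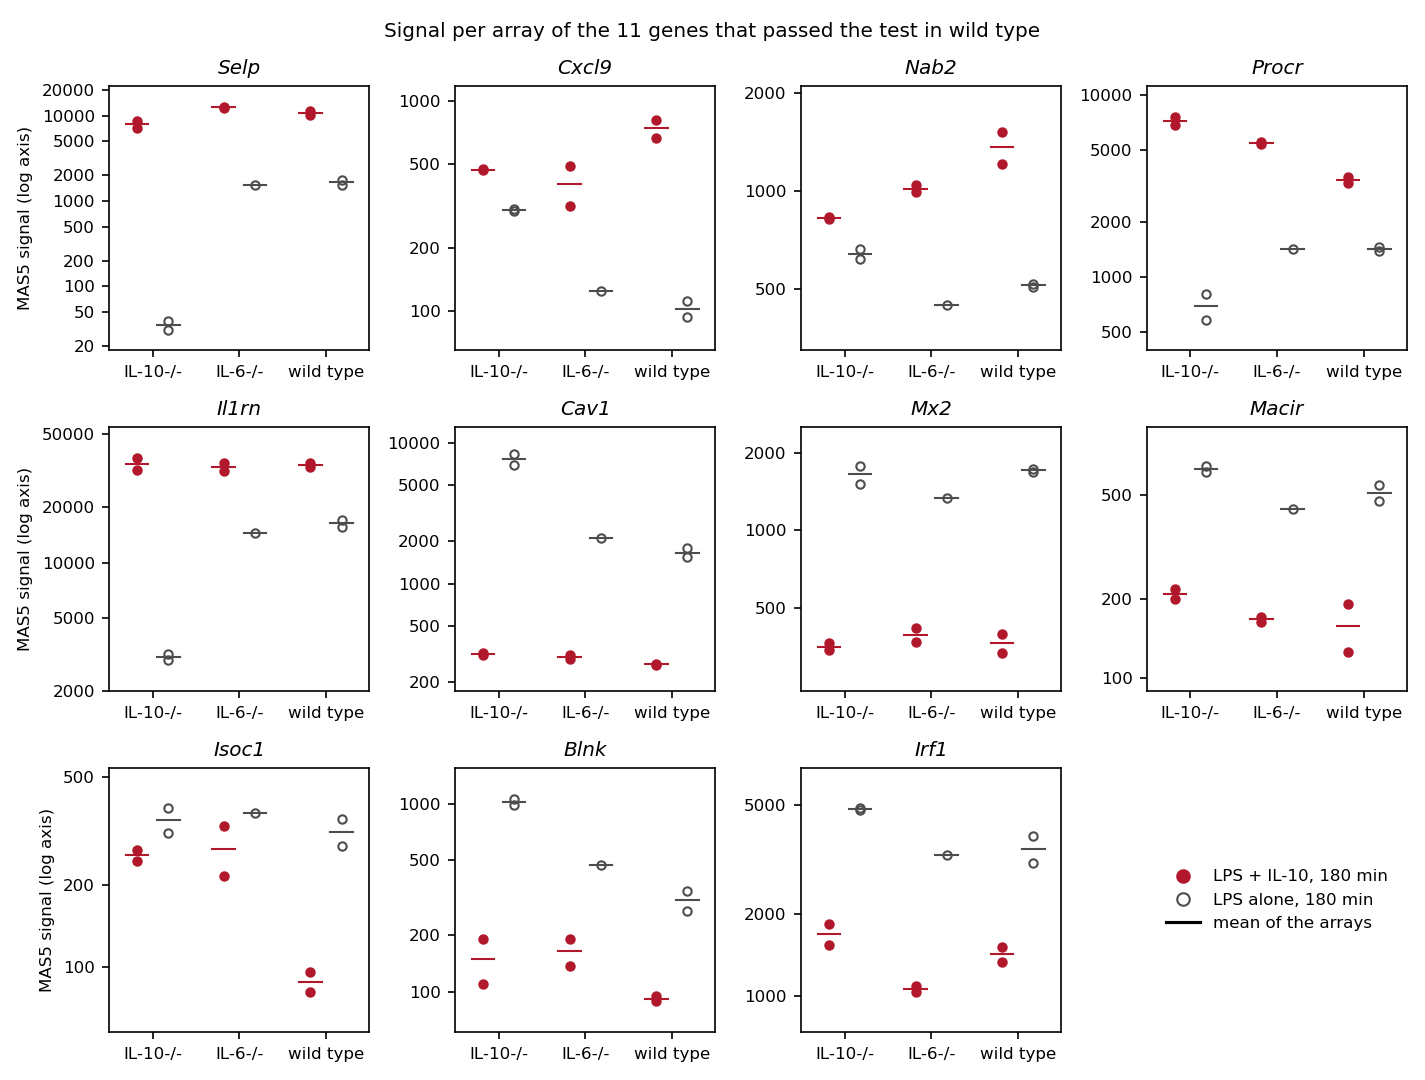
Signal (log axis) of the 11 genes that passed in wild type, 1 point per array and a line at the mean, at 180 min with LPS plus IL-10 (filled) and with LPS alone (open) in IL-10-/-, IL-6-/- and wild-type macrophages. In wild type Selp sits at 10140.9 and 11241.4 with IL-10 and at 1552.4 and 1744.2 under LPS alone, and Cav1 at 266.6 and 270.2 with IL-10 and at 1544.9 and 1780.4 under LPS alone.

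The same 11 genes were read in independent arrays of the knockout cells. All 11 differed in the same direction in IL-10-/- macrophages and all 11 in IL-6-/- macrophages, where LPS alone is 1 array. Of the 396 genes at an unadjusted p under 0.05 in wild type (176 higher, 2.9% of all, and 220 lower, 3.62%), 71.2% had the same sign in IL-10-/- cells and 72.2% in IL-6-/- cells, against 54.5% and 51.8% of all 6070 genes. Mx2 gave 365.6 and 342.1 with IL-10, against 1781.9 and 1513.9 under LPS alone, in IL-10-/- cells, and 417.3 and 370.2 with IL-10, against 1331.1 under LPS alone, in IL-6-/- cells. Irf1 gave 1533.5 and 1825.7 with IL-10, against 4875.6 and 4795.3 under LPS alone, in IL-10-/- cells, and 1083.2 and 1028.9 with IL-10, against 3272.2 under LPS alone, in IL-6-/- cells. For these 2 interferon genes the responses of IL-10-/- and wild-type cells differed by -0.25 ± 0.29 (Irf1) and 0.02 ± 0.51 (Mx2), and neither difference passed (adjusted p = 0.999 for both). Isoc1 and Nab2 had small changes in IL-10-/- cells, of -0.37 and 0.34, and their differences from wild type did not pass (adjusted p = 0.317 and 0.204).

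Most genes of the interferon response list read lower with IL-10 in wild type. Of its 41 members tested, both IL-10 arrays lay below both LPS-alone arrays for 30 (73.2%), against 16.7% of all 6070 genes, and above them for 4 (9.76%), against 16.3% of all genes. The median change of the 41 was -0.67, where the median of all genes was -0.005. This list, like the others, was chosen with earlier results of these data known, so its shares are a description. Only Irf1 and Mx2 fell and Cxcl9 rose by the test, which called 0.0988% of all genes lower and 0.0824% higher. The remaining 38 members did not pass, and 1 of the 3 calls, that of Cxcl9, was left without the first LPS-alone array or without the second LPS plus IL-10 array. The same median was -0.53 in IL-10-/- cells and -0.83 in IL-6-/- cells, and in wild type at 45 min it was 0.20.

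Several antiviral effectors in the list had large changes without passing, and the following were picked after their values were seen. Mx1, the close relative of Mx2, gave 242.8 and 370 with IL-10, against 1546.8 and 1385.8 under LPS alone (-2.11 ± 0.52, adjusted p = 0.168). Ifit1, which binds viral RNA, gave 1066.3 and 831.7 with IL-10, against 4119.9 and 3096.9 under LPS alone (-1.87 ± 0.56, adjusted p = 0.334). Rsad2, which encodes viperin, gave 922.9 and 1334.8 with IL-10, against 2974.3 and 3528.7 under LPS alone (-1.50 ± 0.38, adjusted p = 0.173). Isg15, a ubiquitin-like modifier, gave 3833.6 and 3479.6 with IL-10, against 7230.8 and 7407.8 under LPS alone (-0.99 ± 0.46, adjusted p = 0.764). Igtp, an interferon-induced GTPase, gave 255.1 and 256 with IL-10, against 753 and 648 under LPS alone (-1.29 ± 0.36, adjusted p = 0.267). The 2 groups stayed apart for all 5 genes. Besides Cxcl9, Irf8, Gbp3 and Gbp2 were higher on both IL-10 arrays without passing, and Gbp2, a guanylate-binding protein, gave 9044.6 and 6876.7 with IL-10, against 5492.1 and 3139.2 under LPS alone.

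The stretches before the start sites of Irf1 and of 4 interferon genes are shown because these genes read lower together and their windows hold letters of the 2 motifs searched that bear on STAT and interferon signalling. They are 150 bases just before each start in RefSeq's GRCm38.p6 promoter table, read 5' to 3' on the gene's strand. Capitals mark the STAT motif TTCNNNGAA in Irf1 and the interferon-stimulated response element (GAAA, any 2 bases, GAAA), on either strand, in the others, where overlapping matches in Isg15 run together. The Igtp stretch also holds a match to the STAT motif, ttctaggaa, which is left in lower case. Irf1 lies at chr11:53769864-53770013 (+), Ifit1 at chr19:34640739-34640888 (+), Rsad2 at chr12:26456453-26456602 (-), Isg15 at chr4:156200819-156200968 (-) and Igtp at chr11:58199406-58199555 (+).
Irf1: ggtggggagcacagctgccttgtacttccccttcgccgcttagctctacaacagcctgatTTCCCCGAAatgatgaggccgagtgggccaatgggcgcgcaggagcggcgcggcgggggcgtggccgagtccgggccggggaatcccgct
Ifit1: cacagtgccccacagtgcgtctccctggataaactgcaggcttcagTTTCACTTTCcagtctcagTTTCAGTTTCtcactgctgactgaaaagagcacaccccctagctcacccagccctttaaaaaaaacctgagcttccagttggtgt
Rsad2: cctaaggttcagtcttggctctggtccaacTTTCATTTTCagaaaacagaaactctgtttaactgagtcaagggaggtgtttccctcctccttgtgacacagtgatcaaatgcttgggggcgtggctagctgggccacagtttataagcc
Isg15: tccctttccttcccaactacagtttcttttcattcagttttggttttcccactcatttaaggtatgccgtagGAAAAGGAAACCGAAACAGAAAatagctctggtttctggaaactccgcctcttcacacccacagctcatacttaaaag
Igtp: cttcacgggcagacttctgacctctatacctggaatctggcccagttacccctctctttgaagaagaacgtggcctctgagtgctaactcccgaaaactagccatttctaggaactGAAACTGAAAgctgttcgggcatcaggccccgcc

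The motifs were counted, on both strands, in windows of 300 bases around the start sites, with several windows for some genes. Of the 41 interferon members, 34 had a window, and 14 of these (41.2%) held the response element and 10 (29.4%) the STAT motif. The 14 included Gbp2 and Gbp3, and the 10 included Irf8, all higher on both IL-10 arrays. Irf1 and Ifit2, lower on both, had a window and were not among the 14. Whether a motif goes with the direction of change was not tested. Among the 4887 tested genes with a window the shares were 3.79% and 8.29%. None of the 5 genes that rose held any of the motifs in its windows, the kappaB consensus included, and of the 4 that fell and had a window, Irf1 held the STAT motif and the kappaB consensus. A match is a string of letters and no site of binding.

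**Figure D2:**
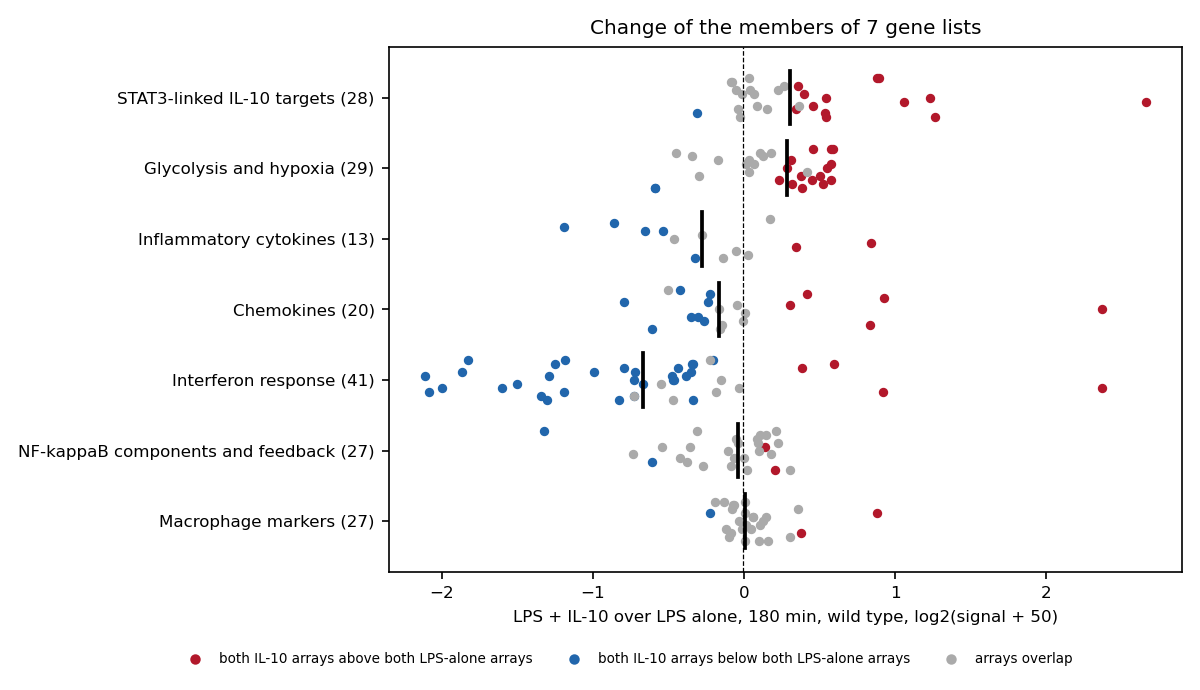
Log2 change with IL-10 in wild type at 180 min (x axis) for each tested member of 7 gene lists, with the number tested beside each name, a black bar at the list's median and a dashed line at the median of all genes. Interferon members lie mostly left of 0 with a median of -0.67, the STAT3-linked list has a median of 0.30, the glycolysis list 0.29 and macrophage markers 0.01.

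Genes linked to STAT3 and IL-10 rose in 3 of 28 cases (Selp, Procr and Il1rn), with 0.0824% of all genes called higher, and none fell. Without the first LPS-alone array, or without the second LPS plus IL-10 array, 1 of the 3 calls was left. Both IL-10 arrays lay above both LPS-alone arrays for 13 of the 28 (46.4%), against 16.3% of all genes, and below for Gadd45g alone (3.57%), against 16.7%. The median change was 0.30, against -0.005 over all genes. Because the list was chosen with earlier results of these data known, these shares are a description and no test. Arg2, which encodes an arginase, gave 2786.9 and 2223.6 with IL-10, against 1182.1 and 855.5 under LPS alone, and did not pass (1.27 ± 0.43, adjusted p = 0.492). Socs3, the inhibitor that STAT3 induces, was close to level and gave 17171.4 and 21448.6 with IL-10, against 18486.3 and 20649.9 under LPS alone (-0.03 ± 0.27). Stat3 itself gave 4502.4 and 5144.2 with IL-10, against 3763.4 and 3253.7 under LPS alone (0.45 ± 0.17, adjusted p = 0.631). A second Stat3 probe set gave 3347.1 and 5569.8 with IL-10, against 2199.7 and 2603.9 under LPS alone (0.84 ± 0.22, adjusted p = 0.215), so both probe sets stood higher with IL-10 without passing. Bcl3, an inhibitory partner of NF-kappaB, changed by 0.23 ± 0.31 and Nfil3, a repressor of Il12b, by -0.04 ± 0.27.

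The receptor chains and the cytokine's own transcript were measured as well. Il10ra gave 570.7 and 701.8 with IL-10, against 735.4 and 649.3 under LPS alone, and Il10rb gave 5106.8 and 5083.7 with IL-10, against 5266.3 and 5361.3 under LPS alone. The 2 groups overlapped for Il10ra and differed by 0.06 for Il10rb, which fell short of the test (adjusted p = 0.999 for both). Il10 gave 4409 and 4512.1 with IL-10, against 3264.7 and 2700.7 under LPS alone (0.58 ± 0.26, adjusted p = 0.748). Jak1 gave 2713.4 and 3657.4 with IL-10, against 1512.6 and 1932.9 under LPS alone (0.86 ± 0.24, adjusted p = 0.267). Il4ra, a receptor chain for IL-4 that IL-10 is known to raise, gave 19238.8 and 19554.4 with IL-10, against 13673.2 and 12977.6 under LPS alone (0.54 ± 0.18, adjusted p = 0.492). None of the 29 members of the receptor and feedback list passed, where 0.181% of all genes did. Of the 29, 7 (24.1%) stood higher and 7 (24.1%) lower without overlap, against 16.3% and 16.7% of all genes. Among the lower was Cish, a feedback inhibitor of the SOCS family picked after its values were seen, with 611.2 and 806.2 with IL-10, against 1137 and 1166.6 under LPS alone (-0.68 ± 0.24, adjusted p = 0.534).

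No inflammatory cytokine passed in wild type, 0 of 13, where 0.181% of all genes passed, so this count does not set the list apart. The median change of the 13 was -0.28, against -0.005 over all genes. Tnf gave 11830.3 and 14281.4 with IL-10, against 15153 and 17418.1 under LPS alone (-0.32 ± 0.39, adjusted p = 0.999). Il6 gave 2233.7 and 995.5 with IL-10, against 4567.8 and 2644.8 under LPS alone (-1.19 ± 0.53, adjusted p = 0.748). Both IL-10 arrays were below both others for these 2 genes, and 5 of the 13 members (38.5%) stood apart in that way, against 16.7% of all genes. Both IL-10 arrays were above both others for 2 members (15.4%), against 16.3% of all genes. Il12b, the p40 chain of IL-12, gave 1435.9 and 1014.5 with IL-10, against 1529.4 and 1416 under LPS alone (-0.28 ± 0.46). Il1b was level at 41144.4 and 36816.8 with IL-10, against 38468.5 and 38001.2 under LPS alone (0.03 ± 0.25). Among 20 chemokines, Cxcl9 was the one that passed, where 0.181% of all genes did. Both IL-10 arrays lay above both others for 5 of the 20 (25%), against 16.3% of all genes, and below for 8 (40%), against 16.7%.

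Glycolysis and hypoxia genes leaned upwards without any call. Of 29 tested, 15 (51.7%) had both IL-10 arrays above both others, against 16.3% of all genes, and 2 (6.9%) below, against 16.7%, and the median was 0.29, against -0.005 over all genes. Ldha, which makes lactate, gave 12954 and 14528.8 with IL-10, against 9775.1 and 9520.3 under LPS alone (0.51 ± 0.17, adjusted p = 0.453), and Tpi1, a glycolytic enzyme, gave 6916.2 and 7253.2 with IL-10, against 5095.1 and 5240.5 under LPS alone (0.45 ± 0.16, adjusted p = 0.556). Markers of other cells were read beside these results, since in bulk RNA fewer cells of a type and less RNA per cell cannot be told apart. The summed signal of 17 neutrophil and granulocyte markers was 4715 and 3893 with IL-10, against 3117 and 2717 under LPS alone, that of 16 erythroid, platelet and mast cell markers 4136 and 4930 with IL-10, against 2836 and 3694 under LPS alone, and that of 23 stromal markers 18005 and 19869 with IL-10, against 17724 and 17080 under LPS alone. Lymphocyte and NK markers (17) summed to 2366 and 2666 with IL-10, against 2230 and 2600 under LPS alone. Of the neutrophil markers S100a9 and Mmp8 read under 100 on all 4 arrays, Mpo gave 43.4 and 94.4 with IL-10, against 110.9 and 117.9 under LPS alone, and S100a8 gave 1157.1 and 927.3 with IL-10, against 514.9 and 370.7 under LPS alone (adjusted p = 0.595). Csf3r and S100a8 were the largest terms of the neutrophil sum on each array. Csf3r gave 2446.9 and 1733.3 with IL-10, against 1531.5 and 1257.7 under LPS alone (adjusted p = 0.879). In the erythroid and mast cell sum, Car2 gave 1534.3 and 1469.1 with IL-10, against 850 and 822.3 under LPS alone. Cma1, in the same sum, gave 490.1 and 1128.5 with IL-10, against 717.5 and 1303.4 under LPS alone. The part of such cells in the results was not tested.

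Cells without their own IL-10 answered the added cytokine differently at some genes. The difference between the response of IL-10-/- and of wild-type macrophages passed at 46 of 8224 probe sets (0.559%), of which 36 were more positive in IL-10-/- cells (0.438%) and 10 more negative (0.122%). There were 28 without the first IL-10-/- array under LPS alone, and 28 without either IL-10-/- array with IL-10. These differences use the wild-type arrays described above. For 40 of the 46, the 2 genotypes lay farther apart under LPS alone than with added IL-10: the median gap was 1.99 (log2) under LPS alone and 0.35 with IL-10. This is a description, because the gaps enter the difference that chose the probe sets. Il10 itself gave 4633.7 and 4698.2 with IL-10, against 1532.2 and 1511.8 under LPS alone, in IL-10-/- cells, so its probe set does not check the deletion.

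Selp, Il1rn and Procr were the STAT3-linked genes that rose in wild type, and each responded more in IL-10-/- cells. Selp gave 7232.8 and 8679.3 with IL-10, against 39.1 and 31.2 under LPS alone, in IL-10-/- cells, and the difference from wild type was 3.89 ± 0.46 (adjusted p = 1.54e-05). Il1rn gave 37013.3 and 32044.4 with IL-10, against 2940.5 and 3188.8 under LPS alone, in IL-10-/- cells (difference 2.41 ± 0.24, adjusted p = 1.45e-06). Procr gave 7586.8 and 6849.2 with IL-10, against 800.3 and 581.8 under LPS alone, in IL-10-/- cells (2.08 ± 0.30, adjusted p = 0.000239). With IL-10 added, Il1rn reached about the same signal in both genotypes, and under LPS alone wild type was well above IL-10-/-. Procr with IL-10 was higher in IL-10-/- cells than in wild type. Of the 28 STAT3-linked genes, 12 had responses that differed between the genotypes, against 42 of all 6070 genes (0.692%). The list was chosen with earlier results of these data known, so this share is a description and no test.

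Other genes had larger changes in IL-10-/- cells than in wild type, where they did not pass. Bach1, a repressor of antioxidant genes, gave 10452.9 and 9706.1 with IL-10, against 306.9 and 334.4 under LPS alone, in IL-10-/- cells, and 9191.5 and 10319.5 with IL-10, against 8066.3 and 11541.1 under LPS alone, in wild type (difference 4.76 ± 0.40, adjusted p = 5.89e-08). Il4ra gave 19040.6 and 18894.8 with IL-10, against 1005.7 and 1201.2 under LPS alone, in IL-10-/- cells (difference 3.51 ± 0.26, adjusted p = 1.17e-08). Dusp1, a phosphatase that switches off MAP kinases, gave 15550 and 14290 with IL-10, against 1403.6 and 1170.4 under LPS alone, in IL-10-/- cells, and 9352.2 and 11466.5 with IL-10, against 8054.3 and 8223.4 under LPS alone, in wild type (difference 3.14 ± 0.37, adjusted p = 1.54e-05). Chil1, a chitinase-like secreted protein, gave 4429.3 and 3808 with IL-10, against 305.8 and 191 under LPS alone, in IL-10-/- cells, and 2242.4 and 2039.4 with IL-10, against 1721.7 and 1809.6 under LPS alone, in wild type (difference 3.56 ± 0.49, adjusted p = 0.000173). Stat3 (difference 1.07 ± 0.25, adjusted p = 0.0425), Bcl3 (1.94 ± 0.44, adjusted p = 0.038), Map3k8, the kinase TPL2 (2.69 ± 0.41, adjusted p = 0.000505), and Cp, ceruloplasmin (2.48 ± 0.52, adjusted p = 0.0217), also differed. In wild type Cp gave 3798 and 5185.7 with IL-10, against 1865 and 2753.9 under LPS alone (0.95 ± 0.37, adjusted p = 0.65). Leaving out 1 of the 8 arrays ended the call of Stat3 in every case (adjusted p up to 0.207) and those of Bcl3 and Cp in 6 of 8, all but the first wild-type LPS-alone and the second wild-type LPS plus IL-10 array (up to 0.242 and 0.158), whereas Bach1, Il4ra, Dusp1, Chil1 and Map3k8 kept theirs. The second probe sets of Stat3 (1.15, adjusted p = 0.125) and Il4ra (-0.15, adjusted p = 0.999) did not pass. Bach1 and Map3k8 also have a second probe set on the array, whose values are not given here.

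Csf2, Ccl17 and Ccl22 moved the other way. Csf2, which encodes GM-CSF, gave 82.9 and 76.8 with IL-10, against 6968.7 and 6418.9 under LPS alone, in IL-10-/- cells, and 63.6 and 39.7 with IL-10, against 108.5 and 84.7 under LPS alone, in wild type. The difference of -5.16 ± 0.59 (adjusted p = 1.34e-05) arose with wild-type signals near the bottom of the range in both conditions. Ccl17, a ligand of CCR4, gave 46.9 and 16.8 with IL-10, against 1306.1 and 1422.7 under LPS alone, in IL-10-/- cells, and 27.2 and 32.5 with IL-10, against 46 and 42 under LPS alone, in wild type (-3.90 ± 0.56, adjusted p = 0.000256). Its wild-type signals were near the bottom of the range too. On the arrays used here, Csf2 and Ccl17 reached 200, the level required for testing, only in IL-10-/- cells under LPS alone. The 2 arrays that made each difference were thus enough to pass the filter, which the adjusted p values do not take into account. Ccl22, another CCR4 ligand, differed by -2.37 ± 0.54 (adjusted p = 0.0425), a call lost without any 1 of the 8 arrays other than the same 2 wild-type arrays as for Bcl3 (adjusted p up to 0.242). Cav1 was lower with IL-10 in both genotypes, by more in IL-10-/- cells, which gave 323.6 and 311.6 with IL-10, against 8375 and 7000.1 under LPS alone (difference -1.97 ± 0.35, adjusted p = 0.0035), whereas its dimmer probe set differed by 0.05 without passing (adjusted p = 0.999). Tnf gave 13627.2 and 13243.9 with IL-10, against 50046.2 and 46346.5 under LPS alone, in IL-10-/- cells, and Il6 gave 4019.1 and 3761.8 with IL-10, against 26567 and 21767 under LPS alone, but their differences from wild type did not pass (-1.52 ± 0.55, adjusted p = 0.417, and -1.42 ± 0.75, adjusted p = 0.858).

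Among the named genes whose responses differed, Cxcl9 and Pofut2 had the larger change in wild type. Cuta, Elp3 and Kcnn4, which the naming rule did not pick, also did, with opposite signs in the 2 genotypes. Cxcl9 gave 466.7 and 473.7 with IL-10, against 304.7 and 297.4 under LPS alone, in IL-10-/- cells, a smaller response than in wild type (difference -1.80 ± 0.42, adjusted p = 0.0449). Pofut2, an enzyme that adds fucose to secreted proteins, gave 82.6 and 74.3 with IL-10, against 387.6 and 243.4 under LPS alone, in IL-10-/- cells, and 432.2 and 451.9 with IL-10, against 54 and 104.5 under LPS alone, in wild type (difference -3.44 ± 0.74, adjusted p = 0.0268). The 2 changes of Pofut2 had opposite signs. Both differences were fragile: that of Cxcl9 no longer passed without any 1 of the 8 arrays (adjusted p up to 0.184), and that of Pofut2 without any but the second LPS-alone array of either genotype (up to 0.17).

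**Figure D3:**
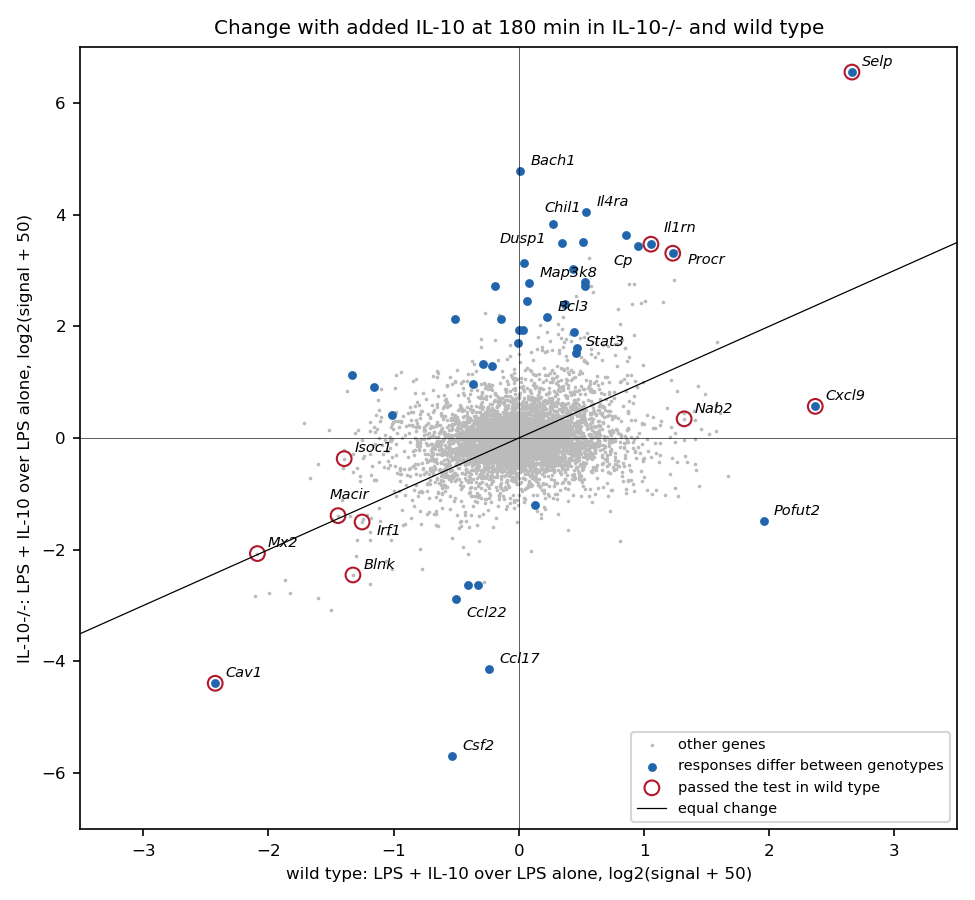
Log2 change with added IL-10 at 180 min in wild-type (x axis) and IL-10-/- macrophages (y axis) for 6070 genes, with genes whose responses differ between genotypes filled in blue, genes that passed in wild type ringed, and a line of equal change. Bach1 and Il4ra lie at 4.77 and 4.05 in IL-10-/- cells and at 0.01 and 0.54 in wild type, and Csf2 at -5.70 in IL-10-/- cells and -0.53 in wild type.

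Across the 6070 genes the changes of the 2 genotypes correlated with r = 0.259, over separate arrays, and the median size of change was 0.23 in IL-10-/- cells and 0.214 in wild type. Genes are not independent replicates. In IL-6-/- cells the response differed from wild type at 1 of 8224 probe sets (0.0122%). That gene, Ddah2, which breaks down methylated arginines and was named after its values were seen, rests on 1 LPS-alone array: 792 and 693.9 with IL-10, against 130.1 under LPS alone, in IL-6-/- cells, and 516.4 and 575.9 with IL-10, against 609.2 and 798.3 under LPS alone, in wild type (difference 2.46, adjusted p = 0.0274). At an unadjusted p under 0.05 there were 357 probe sets (4.34%). The count was 0 without the second wild-type LPS-alone array, the second wild-type LPS plus IL-10 array or the second IL-6-/- array with IL-10, and 5 without the first wild-type LPS plus IL-10 array. The Il6 probe set gave 427.5 and 440.3 with IL-10, against 1014.3 under LPS alone, in IL-6-/- cells.

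Within wild type, the response to IL-10 was also set against that at 45 min. The 2 responses differed at 12 of 8224 probe sets (0.146%), 4 of them more positive at 180 min (0.0486%) and 8 more negative (0.0973%). There were 7 without the first LPS-alone array at 180 min and 6 without the first LPS plus IL-10 array at 45 min. The 180-min arrays are those described above. Il6 gave 2678.9 and 2126 with IL-10, against 209 and 222.5 under LPS alone, at 45 min, and at 180 min it read lower with IL-10 than under LPS alone, as given above (180 minus 45 min, -4.39 ± 0.75, adjusted p = 0.00633). Gadd45g, a stress-response gene, gave 4570.8 and 4713 with IL-10, against 554.9 and 265.6 under LPS alone, at 45 min, and 335.3 and 253.1 with IL-10, against 417.4 and 336 under LPS alone, at 180 min (-3.74 ± 0.44, adjusted p = 0.000114). Both genes were high with IL-10 at 45 min, when LPS alone had less signal. Gadd45g passed whichever array was left out, and Il6 lost its call without the first LPS plus IL-10 array at 45 min, the second at 180 min or the first LPS-alone array at 180 min (adjusted p up to 0.0819).

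Irf1 was higher with IL-10 at 45 min and lower at 180 min. It gave 11985.3 and 10875.4 with IL-10, against 6591.1 and 5363 under LPS alone, at 45 min (difference of responses -2.19 ± 0.29, adjusted p = 0.000323). Map3k8 gave 3332.1 and 3049.8 with IL-10, against 488.2 and 386.5 under LPS alone, at 45 min, and 4683.8 and 4097.1 with IL-10, against 4389.4 and 3887 under LPS alone, at 180 min (-2.66 ± 0.41, adjusted p = 0.0027). Il4ra gave 4575.8 and 4686.6 with IL-10, against 1480.5 and 948.9 under LPS alone, at 45 min (-1.38 ± 0.26, adjusted p = 0.0156). Its arrays at 180 min, given above, were still higher with IL-10 without passing, whereas those of Map3k8 overlapped. Cav1 was low in both conditions at 45 min, at 138.3 and 224.2 with IL-10, against 222.3 and 216.6 under LPS alone (-2.18 ± 0.35, adjusted p = 0.00329). Blnk was bright at 45 min, with 1926.9 and 1627.4 with IL-10, against 1030.8 and 1568 under LPS alone (-1.79 ± 0.37, adjusted p = 0.0414). Irf1, Map3k8 and Cav1 passed whichever array was left out, whereas Il4ra and Blnk each lost their call without 7 of the 8, Il4ra keeping it only without the first LPS-alone array at 45 min and Blnk only without the second (adjusted p up to 0.214 and 0.299). The second probe sets of Il4ra (-0.27), Cav1 (-0.19) and Blnk (-0.89) did not pass for this difference (adjusted p = 1 for each). That of Map3k8 is not given here.

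Acod1 and Ifrd1 were lower with IL-10 at 45 min, and their changes at 180 min did not pass. Acod1, the enzyme that makes itaconate, gave 408.3 and 270.6 with IL-10, against 1494.8 and 1637.3 under LPS alone, at 45 min, and 33815.6 and 33364.6 with IL-10, against 31971.2 and 32222.9 under LPS alone, at 180 min (2.14 ± 0.38, adjusted p = 0.00704). Ifrd1, a transcriptional coregulator, gave 656 and 842.1 with IL-10, against 2693.6 and 2508.4 under LPS alone, at 45 min, and 587.7 and 511.6 with IL-10, against 549.6 and 371.3 under LPS alone, at 180 min (1.99 ± 0.34, adjusted p = 0.00633). Acod1 lost its call without the second array of either condition at 45 min or the first LPS-alone array at 180 min (adjusted p up to 0.0923), and its second probe set is not given here. Ifrd1 lost its call without the first LPS plus IL-10 array at 45 min or the second LPS-alone array at 180 min (up to 0.0798). Selp was already higher with IL-10 at 45 min, with 1109.7 and 979.2 with IL-10, against 26.7 and 37.3 under LPS alone, and the 2 responses did not differ by the test (-1.08 ± 0.46, adjusted p = 0.948). For Tnf, the values at 45 min were 6410.2 and 6781.9 with IL-10, against 21922 and 23219.4 under LPS alone, and the difference between the 2 times did not pass (1.45 ± 0.55, adjusted p = 0.852).

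**Figure D4:**
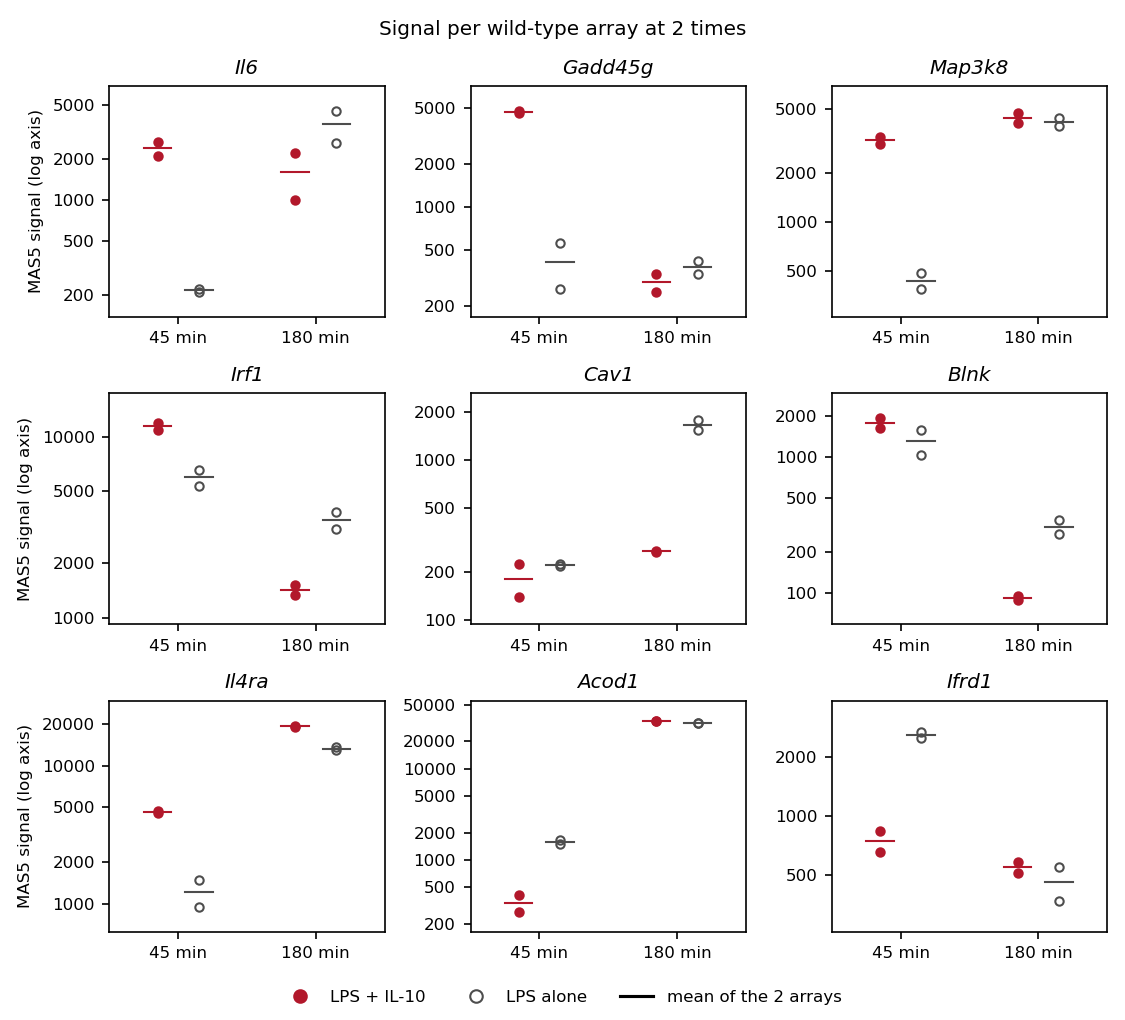
Signal (log axis) of 9 genes in wild-type macrophages at 45 and 180 min, 1 point per array and a line at the mean, with LPS plus IL-10 (filled) and LPS alone (open). Irf1 lies at 11985.3 and 10875.4 with IL-10, above LPS alone, at 45 min, and at 1504.6 and 1332.1, below LPS alone, at 180 min, while Acod1 with IL-10 lies below LPS alone at 45 min and beside it at 180 min.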

How the data were processed

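RNA of 34 cultures was hybridised to Affymetrix MG-U74Av2 arrays. The deposited intensity values are MAS5 signals, per the submitters' processing notes, which give no version; their trimmed mean was 500.29 to 500.4 on each array. The 16 labelled groups (32 arrays) were fitted together with limma 3.58.1 in R 4.3.3 on log2(signal + 50), with empirical Bayes moderation and a mean-variance trend. Probe sets with a signal of 200 or more on at least 2 arrays were kept, controls left out, and p-values adjusted by Benjamini-Hochberg over 8224 probe sets (threshold 0.05). A gene is its probe set with the highest mean. Differences between responses are contrasts of the same fit to the deposited arrays. The code was first tested on simulated data with known changes, from which nothing is reported. The 2 arrays whose labels conflict or lack a genotype were left out. Named genes are those that passed (at most 15 each way), up to 4 called members or the 2 smallest p of each list, a fixed set of 16 IL-10 pathway genes, and up to 8 for each difference between IL-10-/- and wild type or between times. Members and lists were chosen with earlier results of these data known. Arrays carry no read depth, and their number limits the precision.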

Additional observations from a re-analysis of the deposited data

Results flagged for a closer look

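Each of the following genes had a response to IL-10 at 180 min that differed between 2 conditions by a test of the difference itself (limma, adjusted p under 0.05), and no explanation was weighed. The wild-type arrays are common to all of them. Only genes named above are listed, not all that passed: Sgk1 (1.62), Phlda1 (1.59) and Rcan1 (-1.72) also passed between times. The limits given above hold here too. Stat3 and Cxcl9 lost their calls between genotypes without any 1 of the 8 arrays. On the arrays used here, Csf2 and Ccl17 reached 200 only in IL-10-/- cells under LPS alone.

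Between IL-10-/- and wild-type macrophages, the difference in log2 response (IL-10-/- minus wild type) was positive for Bach1 (4.76), Selp (3.89), Chil1 (3.56), Il4ra (3.51), Dusp1 (3.14), Map3k8 (2.69), Cp (2.48), Il1rn (2.41), Procr (2.08), Bcl3 (1.94) and Stat3 (1.07). It was negative for Csf2 (-5.16), Ccl17 (-3.90), Pofut2 (-3.44), Ccl22 (-2.37), Cav1 (-1.97) and Cxcl9 (-1.80).

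Between 180 and 45 min in wild type, the difference in log2 response (180 minus 45 min) was positive for Acod1 (2.14) and Ifrd1 (1.99). It was negative for Il6 (-4.39), Gadd45g (-3.74), Map3k8 (-2.66), Irf1 (-2.19), Cav1 (-2.18), Blnk (-1.79) and Il4ra (-1.38).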

How the results depend on the processing

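With 2 arrays a group, the calls in wild type rest on the spread shared over 16 groups: 11 probe sets passed, 10 to 16 under another pseudocount, filter, normalization or variance trend, and 1 when only the 4 arrays of the comparison were fitted. Leaving out 1 array of the 4 gave 3 to 17 calls: 3 without LPS alone replicate 1, 6 without LPS alone replicate 2, 17 without IL-10 replicate 1 and 3 without IL-10 replicate 2. Selp kept its call in all 12 alternatives, Cxcl9 and Cav1 lost theirs only in the fit of 4 arrays, and Blnk lost its call in 8 of 13. All 11 kept their direction. With the replicate number as a block within genotype, 13 passed, 53 between IL-10-/- and wild type, 17 between times, and 0 between IL-6-/- and wild type, where Ddah2 had been the single call; the difference of Cxcl9 between IL-10-/- and wild type also lost its call. Deviations of same-numbered arrays correlated with r = 0.299 between the 2 groups of the comparison and with 0.02 to 0.299 over 10 pairs of wild-type groups, 7 of them over 0.1. Arrays were not treated as paired, since 3 pairs were not over 0.1 and the labels tie the numbers to nothing shared. Those 3 pairs all include LPS plus IL-10 at 45 min, a group outside the main comparison. The r at 180 min, the highest of the 10, is a hint from the data that the arrays may be paired.

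The 46 differences between IL-10-/- and wild type became 72 with a pseudocount of 200, and 28 to 44 without 1 array (28 without IL-10-/- LPS alone replicate 1 or either IL-10-/- array with IL-10). The 12 differences between 180 and 45 min became 20 with a pseudocount of 200, and 6 to 16 without 1 array (7 without LPS alone replicate 1 at 180 min, 6 without LPS plus IL-10 replicate 1 at 45 min). The single difference between IL-6-/- and wild type became 6 with a pseudocount of 10, 3 without the trend, 0 with a pseudocount of 200 or quantile normalization, and 0 to 5 without 1 array. The causes were not tested.

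Changes in wild type that had not passed turned sign: Acod1 was -0.054, Bach1 -0.045 and Il1b -0.039 after quantile normalization, and with all probe sets averaged Acod1 was -0.12, Bach1 -0.22 and Birc2 0.004 (-0.43 for its brightest probe set). Without 1 array, the log2 change ranged from -0.24 to 0.27 for Bach1, -0.15 to 0.60 for Bcl3, -0.12 to 0.68 for Col5a2, -0.003 to 0.51 for Ifrd1, -0.26 to 0.021 for Il10ra, -0.054 to 0.11 for Il1b, -0.012 to 0.18 for Map3k8, -0.14 to 0.066 for Nfil3 and -0.19 to 0.13 for Socs3. Signals under about 200 limit the size of a change.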

Other observations

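Several gene lists without a call in wild type at 180 min stood away from the background in the share of members whose arrays did not overlap, where 16.3% of all genes were higher and 16.7% lower with IL-10. Of 25 sterol synthesis and efflux genes, 8 (32%) were lower on both IL-10 arrays and 1 (4%) higher. Their median change was -0.10 in wild type, -0.06 in IL-10-/- cells and 0.11 in IL-6-/- cells. Hmgcs1, an early enzyme of sterol synthesis, gave 2430.1 and 1240.6 with IL-10, against 2849.3 and 3086 under LPS alone (adjusted p = 0.731), and Lss, lanosterol synthase, 39.1 and 32.5 with IL-10, against 173.9 and 136.3 under LPS alone (adjusted p = 0.65). Of 17 apoptosis genes, 7 (41.2%) were higher on both IL-10 arrays and 1 (5.88%) lower. Among the higher was Mcl1, a survival protein, with 5201.6 and 5409.1 with IL-10, against 3907.3 and 2879.9 under LPS alone (adjusted p = 0.282). The median change of the apoptosis genes was 0.19 in wild type, -0.09 in IL-10-/- cells and 0.12 in IL-6-/- cells. The 27 NF-kappaB components and feedback genes had 2 higher and 2 lower (7.41% each).

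Hspa1b, an inducible heat shock protein, gave 376.5 and 323.2 with IL-10, against 873.6 and 648.2 under LPS alone, in wild type (-1.01 ± 0.29, adjusted p = 0.282), while the 22 heat shock and chaperone genes had a median change of 0.02. Mrc1, the mannose receptor of macrophages, gave 8221.2 and 4785.6 with IL-10, against 3843.1 and 2991.7 under LPS alone (0.88 ± 0.39, adjusted p = 0.749). Ncf1, a subunit of the phagocyte NADPH oxidase, gave 1745.1 and 1144.1 with IL-10, against 2179.7 and 2610.2 under LPS alone (-0.73 ± 0.22, adjusted p = 0.331).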
